A study of Sus scrofa with 9 samples.

Results

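Genes of fatty acid and triglyceride metabolism were followed in boar testis on 9 single-colour arrays. Members were the genes whose array name begins with one of the symbols for fatty acid binding proteins (FABP), acyl-CoA synthetases (ACSL), acyl-CoA oxidases and dehydrogenases (ACOX, ACAD), the thiolase, thioesterase and hydroxyacyl dehydrogenase families (ACAA, ACOT, HADH), carnitine acyltransferases (CPT1, CPT2, CRAT), enzymes of fatty acid synthesis (ACAC, FASN, ELOVL, FADS, SCD), acyltransferases of triglyceride assembly (AGPAT, DGAT), droplet coat proteins (PLIN) or lipases (LPL, LIPC, LIPE, LIPG, PNPLA). The rule took 58 genes of 49437 gene names, carried by 154 of 60889 non-control probes. Each gene was read from 1 probe, the one with the highest mean in the deposited value table. DGAT2L6, FABP2, FABP6 and PLIN1 had no probe in that table, and for them the probe with the highest mean processed signal was taken.

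Testicular biopsies from 3 groups were compared, with 3 arrays each. Control arrays held testis RNA labelled 2n=38,XY with the semen class Control. Oligospermic arrays had the same karyotype and the semen class Oligospermic. The t(1;14) arrays came from a Landrace × Duroc crossbred boar that carries a reciprocal translocation between chromosomes 1 and 14 and whose semen was classed as Oligo-astheno-teratospermic. The t(1;14) arrays are separate samples of 1 boar. The methods name 3 fertile control boars without saying which array holds which, and the study's text elsewhere speaks of pooled control boars. Whether the control arrays differ by boar or are repeats of a pool is therefore not settled here. The number of boars behind the oligospermic arrays is not given in the sources used here. The tests therefore compare arrays and measure the spread between these samples, and any other difference between the animals goes with the karyotype.

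A fatty acid enters a cell through the action of lipases and transporters, is carried by a binding protein and is activated to an acyl-CoA. The acyl-CoA is then oxidized in mitochondria after passing the carnitine shuttle, oxidized in peroxisomes, lengthened or desaturated, or esterified by a chain of acyltransferases to phospholipid and triglyceride. Triglyceride is stored in lipid droplets under a coat of perilipins and is released by lipases. In the testis, Sertoli cells use fatty acids from engulfed germ cell remnants as fuel, Leydig cells store cholesteryl esters for steroid synthesis, and developing sperm build membranes rich in polyunsaturated chains.

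Values are log2 of the background-subtracted spot intensity after quantile normalization over the 9 arrays, and a difference of 1 is a doubling of intensity. Between 37087 and 40632 probes per array were well above background. Correlations were taken over the probes well above background on at least 2 arrays of at least 1 group. They were 0.976 to 0.996 within groups, 0.975 to 0.985 between control and oligospermic arrays, and 0.922 to 0.949 between t(1;14) arrays and the others. Over the same probes the median SD within a group was 0.24 for control, 0.18 for oligospermic and 0.13 for t(1;14) arrays. A gene is said to have risen or fallen only where limma gave a Benjamini-Hochberg adjusted p of at most 0.01 over all probes tested, and is called differential where the log2 fold change also reached 2 in size, which are the thresholds of the study's methods. Among markers of testis cells, all 7 spermatid and all 8 Leydig cell markers on the array were above background on at least 2 arrays of every group.

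The probes are strands of 60 bases, and those below detect genes that the results turn on. They were picked by hand, and each can be read without a stop codon in at least 1 frame. The first group detects transcripts that were lower in the t(1;14) arrays. For LIPE and AGPAT6 the probe shown is another one of the same gene than the one used for its values, and it fell by 1.63 and 2.29 on the log2 scale.
ACACB: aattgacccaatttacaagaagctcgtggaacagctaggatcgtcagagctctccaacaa
LIPE: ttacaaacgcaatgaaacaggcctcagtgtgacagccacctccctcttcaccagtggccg
DGAT2: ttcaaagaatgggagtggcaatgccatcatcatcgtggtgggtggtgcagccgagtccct
AGPAT6: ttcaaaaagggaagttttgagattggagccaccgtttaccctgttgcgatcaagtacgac
AGPAT2: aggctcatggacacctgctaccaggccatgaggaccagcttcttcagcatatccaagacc
PLIN2: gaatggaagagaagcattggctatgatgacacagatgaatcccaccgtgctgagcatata

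The second group detects transcripts of genes that were higher. Each is again a further probe of its gene, with a log2 fold change of 0.69 for ACADM, 0.66 for ACADS, 1.42 for ACOT4 and 0.73 for SCD. The first 3 rose (adjusted p = 0.0056, 0.0056 and 0.00081 in limma), while the SCD probe did not pass (adjusted p = 0.063).
ACADM: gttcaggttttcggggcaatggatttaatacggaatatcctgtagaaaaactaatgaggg
ACADS: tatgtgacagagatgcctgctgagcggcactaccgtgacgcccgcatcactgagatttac
ACOT4: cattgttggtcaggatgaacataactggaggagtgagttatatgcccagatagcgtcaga
SCD: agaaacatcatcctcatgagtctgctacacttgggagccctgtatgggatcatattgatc

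The probes of the polyunsaturated fatty acid desaturases FADS1 and FADS2 are shown because they belong to one family and share a stretch of sequence. The capitals mark the longest run that the probes share, 16 of 60 bases.
FADS1: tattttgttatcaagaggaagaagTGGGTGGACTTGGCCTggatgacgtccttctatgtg
FADS2: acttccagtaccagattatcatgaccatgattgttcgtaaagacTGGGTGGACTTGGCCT

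Against control, in the t(1;14) arrays, 6 of 11 enzymes of fatty acid oxidation rose and 0 fell, by 0.61 to 1.49 on the log2 scale, while 5 of 9 acyltransferases of glycerolipid assembly fell and 0 rose. Hormone-sensitive lipase and the droplet coat protein PLIN2 fell as well. Of 54 members tested, 23 passed (42.6%), 12 of them higher (22.2%) and 11 lower (20.4%). Of all 40643 probes tested 31.2% passed, 15.6% higher and 15.6% lower. Over 5528 genes with a RefSeq symbol, read from 1 probe each by the same rule, 34.7% passed. The median log2 fold change of the members was 0.27, beside 0.14 over all probes. Differential members numbered 3, all lower (5.56% of the members, against 5.61% of probes in either direction and 4.30% lower): ACACB, LIPE and FABP7. FABP1, counted among the 12, was well above background only in the t(1;14) group and entered the test through it, and FABP7 was measured on 1 t(1;14) array. With the filter on dim probes set in every group both were lost and 2 differential members remained. The groups did not overlap for 24 members that were higher and 14 that were lower, beside 35.8% and 26.2% of all probes. In bulk tissue, fewer cells of a type and less RNA per cell cannot be told apart.

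With slide as a block 17 members passed, 7 higher and 10 lower, beside 24.2% of all probes. The count was 14 (5 higher and 9 lower) without t(1;14) replicate 1 and 13 (5 higher and 8 lower) without t(1;14) replicate 3, and between 16 and 29 without any other single array. Calls over all probes dropped as well, from 12668 of 40643 to 6394 of 39733 without t(1;14) replicate 1 and 5746 of 39761 without replicate 3. In all 6 runs that left out an array 12 genes passed: ACACB, ACADS, ACOT4, ACOX2, ACSL4, ACSL5, AGPAT2, AGPAT6, DGAT2, FABP7, LIPE and PLIN2. The other 11 lost the call in at least 1 run, where their largest adjusted p in limma lay between 0.012 and 0.033, and none of the 23 changed sign.

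**Figure D1:**
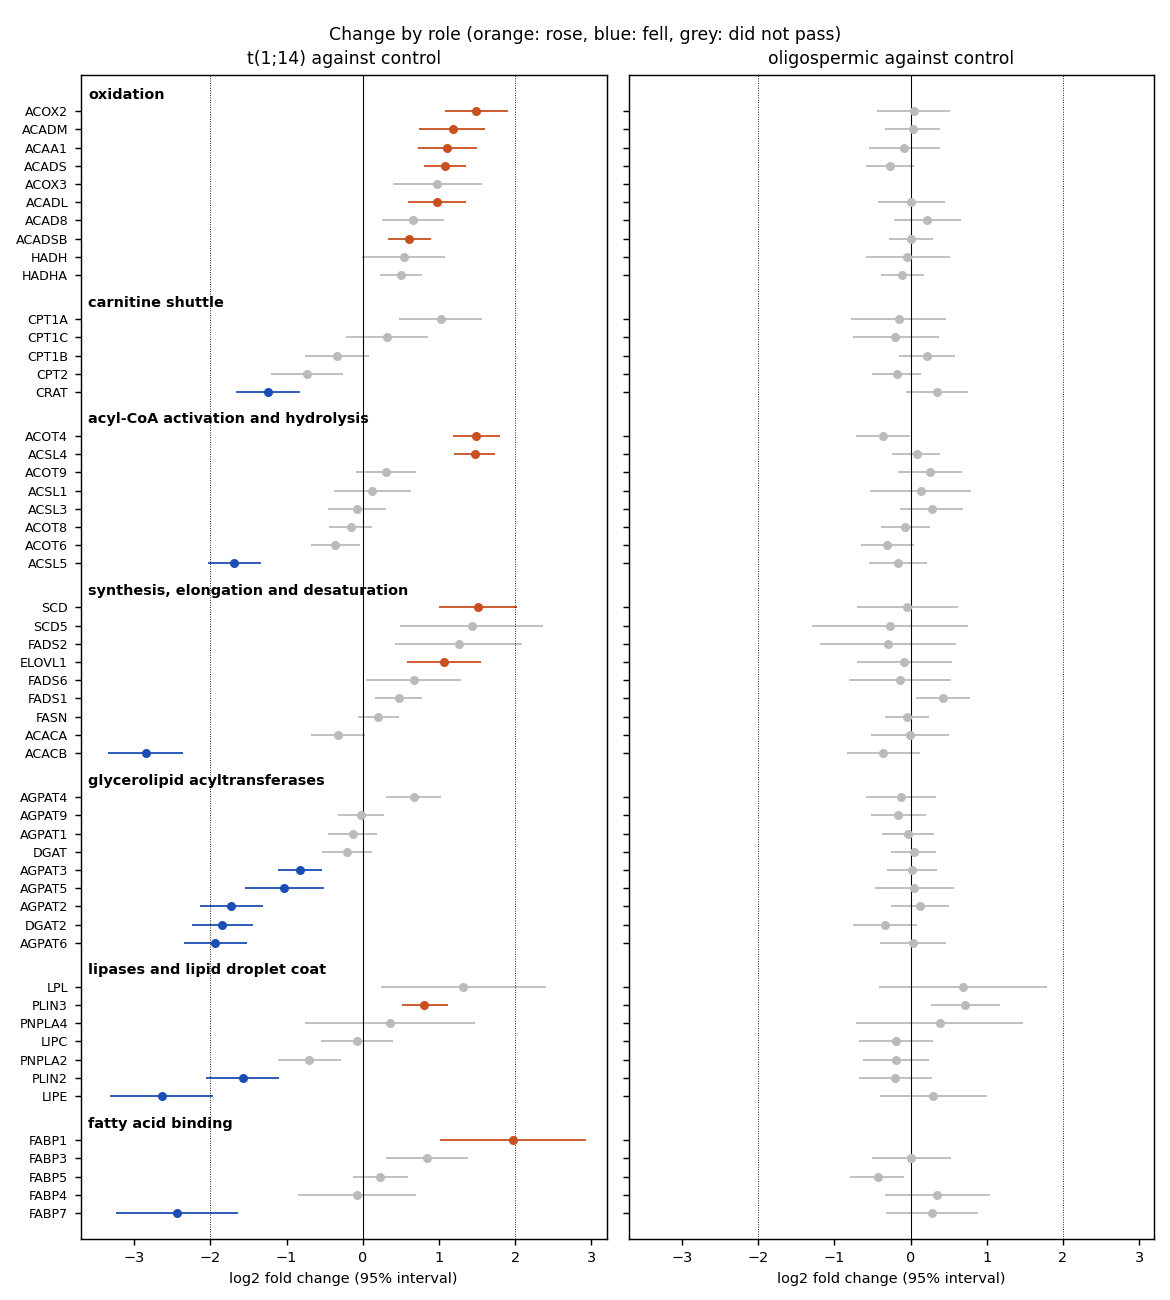
Log2 fold change of the tested members, apart from 1 that is not reported, with its 95% interval, grouped by role, for t(1;14) against control (left) and oligospermic against control (right). Orange points rose, blue points fell, grey points did not pass, and dotted lines mark a log2 fold change of 2 in size. The oxidation enzymes drawn lie right of 0 on the left, 5 acyltransferases are blue, and every point on the right is grey.

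Oxidation enzymes, the largest role, had the most rises in the main fit against control. Of 11 tested, 6 rose and 0 fell, with a median log2 fold change of 0.98. The groups did not overlap, in the direction of a rise, for 9 of the 11. Over all probes 15.6% rose, and 35.8% did not overlap in that direction. Against the oligospermic arrays 9 rose and 0 fell, with a median of 0.86, beside 27.1% of probes that rose. ACOX3 is counted among the enzymes that rose there and among those without overlap with control, and its fitted value is that median of 0.86. It was above background on no control or oligospermic array and entered the tests only through the t(1;14) arrays. Against control, 4 rose with slide as a block, and between 2 and 6 when single arrays were left out. Without t(1;14) replicate 1 the role tied with acyl-CoA activation and hydrolysis, at 2 rises each.

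ACOX2, a peroxisomal oxidase that acts on branched chains and bile acid intermediates, read 7.48, 7.06 and 6.93 in the control arrays, 7.41, 7.25 and 6.94 in the oligospermic arrays and 8.53, 8.73 and 8.70 in the t(1;14) arrays. All 3 t(1;14) arrays lay above the other 6, and the fold change was 2.82 (log2 1.49 ± 0.17 SE, adjusted p = 0.00093 in limma, n = 3 arrays per group). ACAA1, a peroxisomal thiolase of straight-chain oxidation, rose by 1.11 ± 0.16 (adjusted p = 0.0022 in limma). Its call was lost without t(1;14) replicate 1 or 2, at an adjusted p of up to 0.012 in limma. The 2 ACAA1 probes on the array have the same sequence, so their equal log2 fold changes of 1.11 are repeat readings of 1 target.

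The mitochondrial acyl-CoA dehydrogenases take the first step of the oxidation spiral, each for chains of a given length. ACADM, for medium chains, read 10.31, 10.54 and 10.16 in control, 10.44, 10.45 and 10.22 in oligospermic and 11.56, 11.22 and 11.75 in t(1;14) arrays. ACADS, for short chains, read 11.22, 11.01 and 10.98 in control, 10.89, 10.73 and 10.79 in oligospermic and 12.13, 12.17 and 12.14 in t(1;14) arrays. For both genes the lowest t(1;14) array was above the highest of the other 6. ACADM rose by 1.18 ± 0.18 and ACADS by 1.08 ± 0.11 (adjusted p = 0.0027 and 0.00069 in limma). ACADL, for long chains, rose by 0.98 ± 0.16 and ACADSB, for short branched chains, by 0.61 ± 0.12, but with slide as a block their adjusted p in limma was 0.01 and 0.012, which did not pass. Of the 6 runs that left out an array, ACADL passed in 2 and ACADSB in 0, with adjusted p of up to 0.018 and 0.033 in limma. The ACADM call was lost without t(1;14) replicate 1 or 3, at an adjusted p of up to 0.014 in limma. All 7 probes of ACADM and all 6 of ACADL had positive values, of which 4 and 1 rose.

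Other enzymes of the role had positive values that did not pass: HADHA, the alpha subunit of the trifunctional protein, at 0.50 ± 0.11 (adjusted p = 0.012 in limma), HADH at 0.54 ± 0.23, ACAD8, which acts in valine breakdown, at 0.66 ± 0.17, and ACOX3 at 0.98 ± 0.24. ACOX3 read 3.14, 3.31 and 2.62 in control and 4.17, 4.19 and 3.64 in t(1;14) arrays. It was above background on all 3 t(1;14) arrays and 0 of the 6 others, and its level was at least 1.34-fold that of the control arrays.

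In the carnitine shuttle only CRAT passed against control. This carnitine acetyltransferase, which buffers the acetyl-CoA pool, read 14.42, 14.86 and 14.34 in control, 14.96, 14.80 and 14.90 in oligospermic and 13.32, 13.44 and 13.14 in t(1;14) arrays, so that every t(1;14) array was below the other 6. It fell by 1.24 ± 0.17 (adjusted p = 0.002 in limma), and its second probe fell by 1.47. The call was lost without t(1;14) replicate 1 or 3, at an adjusted p of up to 0.012 in limma.

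The long-chain carnitine palmitoyltransferases did not pass against control and had values of either sign. CPT1A, the liver form of the rate-limiting enzyme, stood at 1.03 ± 0.23 (adjusted p = 0.011 in limma) with all 3 t(1;14) arrays, at 12.03, 12.10 and 12.09, above the highest control array at 11.35. The muscle form CPT1B was at -0.34 ± 0.17 and the brain form CPT1C at 0.32 ± 0.22, with overlapping groups. CPT2, on the inner membrane, was at -0.73 ± 0.19 (adjusted p = 0.021 in limma) without overlap. Against the oligospermic arrays CPT1A rose by 1.18 ± 0.15 (adjusted p = 0.00077 in limma).

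Of 8 genes for activation and hydrolysis of acyl-CoA, 2 rose and 1 fell, with a median of 0.03, beside 15.6% of all probes in each direction. ACSL4, the synthetase that prefers arachidonic acid, read 10.23, 10.41 and 10.25 in control, 10.43, 10.47 and 10.22 in oligospermic and 11.70, 11.81 and 11.81 in t(1;14) arrays. ACSL5, which is found at mitochondria and endoplasmic reticulum, read 12.22, 12.38 and 11.93 in control, 12.08, 11.89 and 12.07 in oligospermic and 10.51, 10.50 and 10.47 in t(1;14) arrays. These synthetases of one family moved apart, with the t(1;14) arrays above the other 6 for ACSL4 and below them for ACSL5. ACSL4 rose by 1.47 ± 0.11 (adjusted p = 0.00022 in limma), and 5 of its 6 probes rose. ACSL5 fell by 1.69 ± 0.14 (adjusted p = 0.00032 in limma). ACSL1 was at 0.12 ± 0.21 and ACSL3 at -0.07 ± 0.16, with overlapping groups.

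The thioesterase listed as ACOT4, whose accession matches a RefSeq locus without a gene symbol, read 9.99, 9.81 and 10.09 in control, 9.78, 9.58 and 9.44 in oligospermic and 11.42, 11.57 and 11.38 in t(1;14) arrays. Thioesterases split an acyl-CoA back into the acid and coenzyme A. All 3 of its probes rose, the one used here by 1.49 ± 0.13 (adjusted p = 0.00031 in limma). Of the other thioesterases ACOT6 stood at -0.36, ACOT8 at -0.16 and ACOT9 at 0.31, and none passed.

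Among 9 genes of synthesis, elongation and desaturation, 2 rose and 1 fell, beside 15.6% of all probes in each direction. With slide as a block 1 rose and 1 fell. ACACB, the acetyl-CoA carboxylase whose malonyl-CoA restrains entry into the carnitine shuttle, read 8.70, 8.53 and 8.04 in control, 8.10, 7.92 and 8.17 in oligospermic and 5.65, 5.69 and 5.37 in t(1;14) arrays. The t(1;14) arrays lay more than 2 units below all others, and the level was 7.22-fold lower than in control (log2 -2.85 ± 0.20, adjusted p = 0.00018 in limma). A second ACACB probe also fell, and as no t(1;14) array was well above background on it, its level was at least 8.0-fold lower than in control (means of 6.62 in control and 3.56 in t(1;14) arrays). The third probe, likewise not above background on any t(1;14) array, did not pass (adjusted p = 0.015 in limma). ACACA, the carboxylase that feeds fatty acid synthesis in the cytosol, was at -0.33 ± 0.15 with overlapping groups, and its other probe at 0.48. FASN, fatty acid synthase, was at 0.20 ± 0.11 (adjusted p = 0.16 in limma).

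SCD, which makes monounsaturated from saturated chains, read 12.11, 11.46 and 12.18 in control, 12.17, 12.03 and 11.43 in oligospermic and 13.33, 13.43 and 13.49 in t(1;14) arrays. The t(1;14) arrays were above the other 6 by more than 1 unit. It rose by 1.51 ± 0.21 (adjusted p = 0.002 in limma), as did 7 of its 9 probes, and the call was lost without t(1;14) replicate 3, at an adjusted p of 0.012 in limma. ELOVL1, an elongase of very long chains, rose by 1.07 ± 0.20 (adjusted p = 0.006 in limma), but its second probe was at -0.47 and did not pass. With slide as a block ELOVL1 had an adjusted p of 0.011 in limma, and it did not pass without any 1 of the t(1;14) arrays, with one of up to 0.025.

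The remaining desaturases did not pass against control. SCD5 ranged from 7.99 to 9.58 in control and from 10.25 to 10.42 in t(1;14) arrays, a difference of 1.43 ± 0.39 (adjusted p = 0.023 in limma). FADS2 ranged from 4.12 to 5.49 in control and from 5.97 to 6.23 in t(1;14) arrays, a difference of 1.26 ± 0.34 (adjusted p = 0.023 in limma). FADS1 was at 0.47 ± 0.13 and FADS6 at 0.67 ± 0.26. None of the 4 genes had overlapping groups, and against the oligospermic arrays SCD5, FADS2 and FADS6 rose by 1.70, 1.55 and 0.80, while FADS1 stood at 0.05. FADS6 lost that call without t(1;14) replicate 1 or 2, at an adjusted p of up to 0.012 in limma.

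Of the 9 glycerolipid acyltransferases tested, 0 rose and 5 fell, with a median log2 fold change of -0.82, beside 15.6% of all probes that fell. These enzymes add acyl chains in turn to glycerol 3-phosphate, to lysophosphatidic acid and to diacylglycerol. Against the oligospermic arrays 5 fell and AGPAT4 rose by 0.80, beside 22.0% of probes lower and 27.1% higher, in a comparison that shares the t(1;14) arrays. AGPAT4 lost that call without t(1;14) replicate 1 or 3, at an adjusted p of up to 0.012 in limma. Against control, 4 fell with slide as a block, and between 3 and 5 when single arrays were left out.

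AGPAT6, now named GPAT4, takes the first step. Its levels were 14.17, 14.41 and 13.83 in control, 14.06, 14.14 and 14.31 in oligospermic and 12.17, 12.31 and 12.13 in t(1;14) arrays. DGAT2, which takes the last step to triglyceride, read 13.05, 13.14 and 12.73 in control, 12.75, 12.40 and 12.76 in oligospermic and 11.16, 11.31 and 10.93 in t(1;14) arrays. For each of them the highest t(1;14) array was more than 1 unit below the lowest of the other 6. AGPAT6 fell by 1.94 ± 0.17 (adjusted p = 0.00035 in limma) and DGAT2 by 1.84 ± 0.17 (adjusted p = 0.00038 in limma). All 3 probes of AGPAT6 and both of DGAT2 fell, and the probes not used here had values between -2.41 and -2.29.

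The middle step is shared by several lysophosphatidic acid acyltransferases. AGPAT2, the form best known from adipose tissue, read 10.60, 10.13 and 10.26 in control, 10.43, 10.37 and 10.58 in oligospermic and 8.52, 8.83 and 8.47 in t(1;14) arrays. It fell by 1.73 ± 0.17 (adjusted p = 0.00053 in limma) with no overlap. AGPAT5 fell by 1.03 ± 0.21 (adjusted p = 0.0087 in limma) and AGPAT3 by 0.82 ± 0.12 (adjusted p = 0.0023 in limma). With slide as a block AGPAT5 did not pass (adjusted p = 0.013 in limma). AGPAT5 kept the call in 1 of 6 runs that left out an array, with an adjusted p of up to 0.033 in limma, and AGPAT3 in 4 of 6, with one of up to 0.014 in limma.

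Other acyltransferases did not pass against control. AGPAT4 was at 0.67 ± 0.15 (adjusted p = 0.011 in limma), the only member of the role with a positive value, and its 3 other probes stood between -0.13 and 0.04. AGPAT1 was at -0.13 ± 0.13, but its other 2 probes fell by 1.09 and 1.06. DGAT, which RefSeq names DGAT1, was at -0.21 ± 0.14, and AGPAT9, which RefSeq names GPAT3, at -0.02 ± 0.12. DGAT2L6 was not well above background on any array.

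Among the 7 lipases and droplet coat proteins tested 1 gene rose and 2 fell, beside 15.6% of all probes in each direction. With slide as a block 0 rose and 2 fell. LIPE, hormone-sensitive lipase, which hydrolyses diacylglycerol and cholesteryl esters and is needed for sperm production in mice, read 12.60, 13.67 and 13.23 in control, 13.18, 13.49 and 13.72 in oligospermic and 10.70, 10.31 and 10.56 in t(1;14) arrays. The highest t(1;14) array was almost 2 units below the lowest control array. The level was 6.25-fold lower than in control (log2 -2.64 ± 0.28, adjusted p = 0.0007 in limma), and all 3 probes fell, the other 2 by 1.54 and 1.63.

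PLIN2, the coat protein of droplets in most cells, read 9.05, 8.76 and 8.35 in control, 8.39, 8.54 and 8.63 in oligospermic and 7.25, 7.02 and 7.17 in t(1;14) arrays. PLIN3, which coats small nascent droplets, read 7.83, 8.06 and 7.75 in control, 8.28, 8.68 and 8.86 in oligospermic and 8.76, 8.67 and 8.65 in t(1;14) arrays. PLIN2 was lower in all t(1;14) arrays than in the other 6, whereas for PLIN3 the oligospermic arrays overlapped the t(1;14) arrays and lay above control. PLIN2 fell by 1.57 ± 0.20 (adjusted p = 0.0013 in limma) and PLIN3 rose by 0.81 ± 0.13 (adjusted p = 0.0029 in limma), with an adjusted p of 0.011 in limma for PLIN3 with slide as a block. PLIN3 did not pass without any 1 of the t(1;14) arrays, with an adjusted p of up to 0.017 in limma. PLIN1, the coat protein of fat cells, was not well above background on any of the 9 arrays.

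PNPLA2, the adipose triglyceride lipase, was at -0.70 ± 0.17 (adjusted p = 0.016 in limma) without overlap. LPL, which frees fatty acids from lipoproteins, was at 1.32 ± 0.45 (adjusted p = 0.048 in limma). The first LPL control array read 9.52, and the other 2 read 7.83 and 8.03, while the t(1;14) arrays lay between 9.52 and 9.93. Hepatic lipase, LIPC, was at -0.08 ± 0.20 and PNPLA4 at 0.36 ± 0.46, and in both the groups overlapped.

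**Figure D2:**
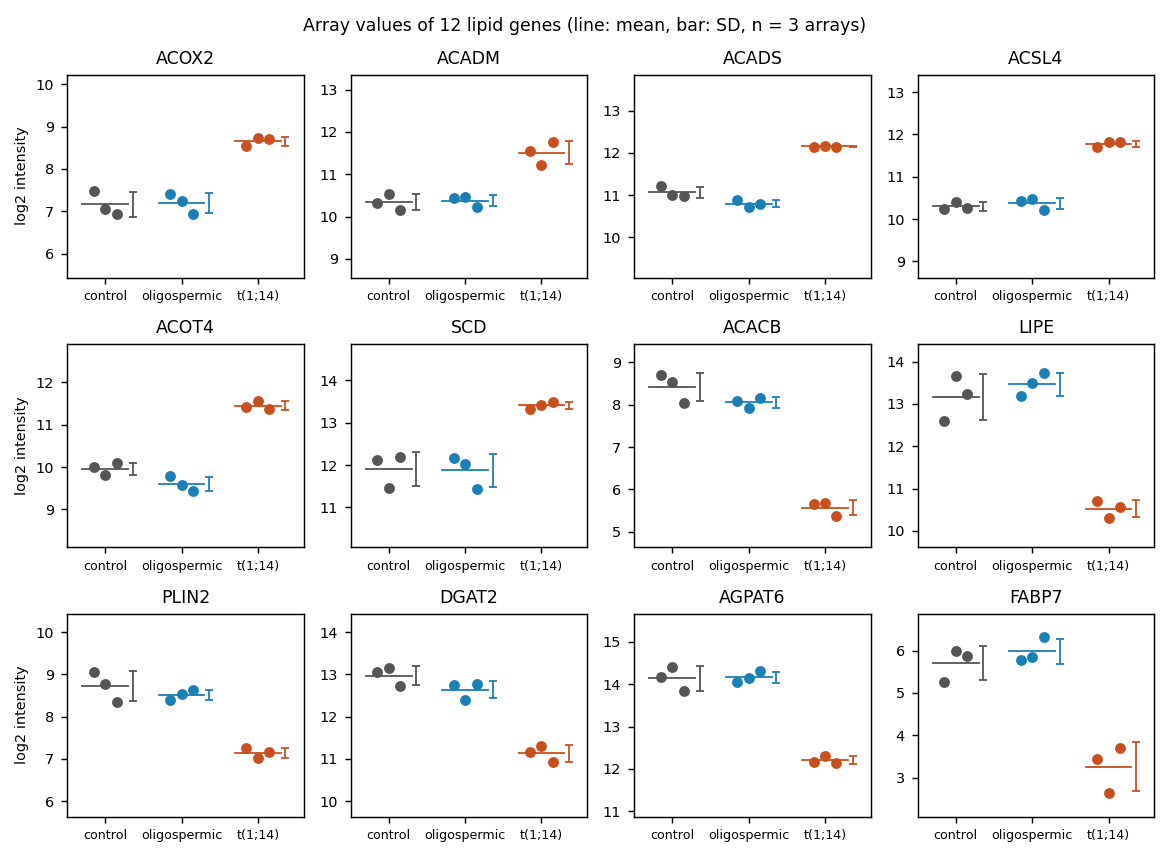
Log2 intensity of 12 members on each of the 9 arrays, with points for arrays, a line for the group mean and a bar for the SD (n = 3 arrays). Each panel spans the same number of log2 units around its own centre. In all 12 panels the t(1;14) arrays sit apart from the control and oligospermic arrays, above them for ACOX2, ACADM, ACADS, ACSL4, ACOT4 and SCD and below them for the rest.

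Fatty acid binding proteins ferry fatty acids through the cytosol, and 5 of the 7 on the array could be tested against control. FABP7, the brain form, read 5.25, 5.99 and 5.87 in control, 5.77, 5.84 and 6.32 in oligospermic and 3.45, 2.63 and 3.71 in t(1;14) arrays. Only 1 of the 3 t(1;14) arrays was well above background, against all 3 in each other group. The fit gave a difference of -2.44 ± 0.33 from control (adjusted p = 0.0018 in limma), whose size, like the differential call, rests on 2 arrays that were not above background. With the filter set in every group FABP7 was not tested.

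FABP1, the liver form, read 3.84, 2.25 and 2.75 in control, 2.93, 3.15 and 3.52 in oligospermic and 4.91, 4.75 and 5.10 in t(1;14) arrays. It was well above background on all 3 t(1;14) arrays and on 0 of the 6 others. Against the lowest signal that counts as above background, its level was at least 2.37-fold that of control and at least 2.32-fold that of the oligospermic arrays. It entered either test only through the group where it was high, so its pass adds nothing to these bounds, and against control it passed neither with slide as a block nor in 5 of the 6 runs that left out an array.

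FABP3, the heart form, was at 0.84 ± 0.22 (adjusted p = 0.021 in limma) and FABP5 at 0.23 ± 0.15. FABP4, the adipocyte form, was at -0.08 ± 0.32 with overlapping groups, and only 2 of its 7 probes could be tested. The intestinal and ileal forms FABP2 and FABP6 were not well above background on any array.

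**Figure D3:**
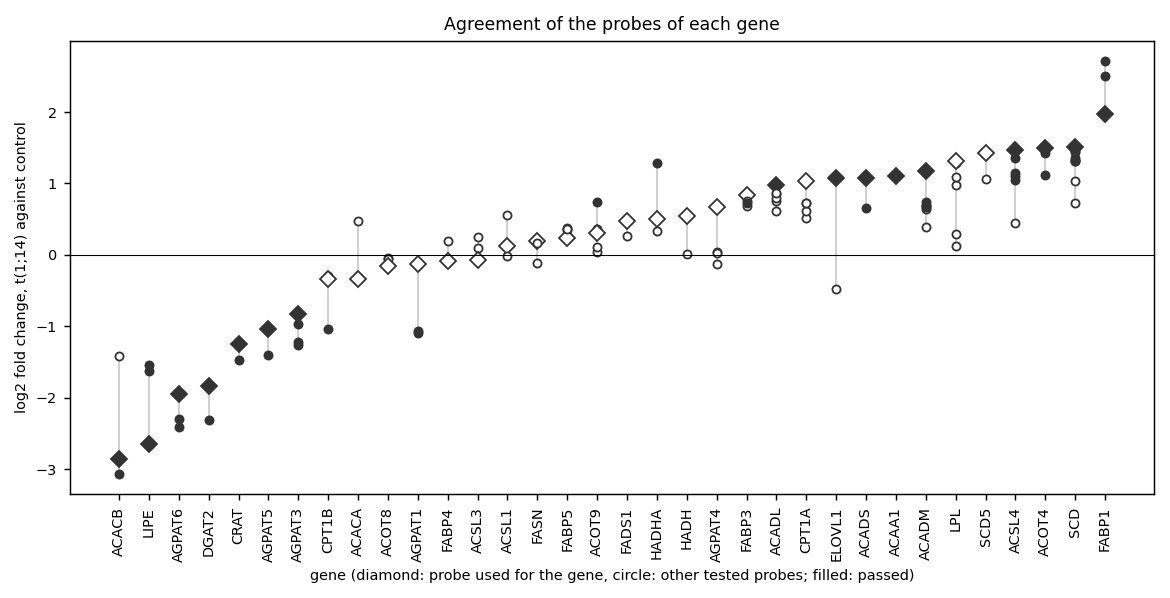
Log2 fold change, t(1;14) against control, of every tested probe for members with more than 1 tested probe, apart from 1 member that is not reported, with genes ordered along the x axis by the probe used. Diamonds are the probe used, circles the other probes, and filled symbols passed. The probes of most genes lie on one side of 0, with ELOVL1 and ACACA among the exceptions.

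The probes of a gene mostly agreed in sign. Of 35 members with more than 1 tested probe in this comparison, 28 had all values of one sign, and 0 had a probe that rose beside one that fell. All tested probes passed for 10 of them. AGPAT1, CPT1B, HADHA, FABP3 and ACOT9 were among the members that did not pass with the probe used but had at least 1 other probe that did. With any probe allowed, 29 members passed against control, 15 of them higher and 14 lower.

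No member passed between oligospermic and control arrays. By the probe used, the 52 members tested had a median log2 fold change of -0.02 and a range from -0.43 to 0.72. The smallest adjusted p was 0.27 in limma, and 0.0755% of the 39713 probes tested passed. Other probes of a gene reached further without passing. The 6 LPL probes ran from -2.31 to 0.69, with 3 positive, and the CPT1A probes from -0.92 to -0.15. At an unadjusted p under 0.05, 4 of the 52 members were listed by limma, beside 9.84% of all probes: PLIN3 at 0.72 ± 0.19, FADS1 at 0.43 ± 0.15, FABP5 at -0.43 ± 0.15 and ACOT4 at -0.36 ± 0.15. The groups did not overlap for 2 members that were higher and 4 that were lower, beside 8.02% and 7.71% of all probes.

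By the probe used, the 95% interval of the difference lay within 1 log2 unit of 0 for 45 of the 52 members and within 2 units for all 52. It ran from -0.83 to 0.12 for ACACB, from -0.40 to 1.00 for LIPE and from -0.75 to 0.08 for DGAT2. For ACOX2 it ran from -0.44 to 0.52, and for SCD from -0.70 to 0.62. ACOX3 and FABP1 could not be tested, because neither group was above background.

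Set against the oligospermic arrays, 32 of 54 members passed in the t(1;14) arrays (59.3%), 20 higher (37.0%) and 12 lower (22.2%). Of 40567 probes 49.1% passed, 27.1% higher and 22.0% lower, and over genes with a RefSeq symbol, read from 1 probe each, 53.3% passed. The median was 0.10, beside 0.14 over all probes. Differential members were again LIPE at -2.94 ± 0.17, ACACB at -2.49 ± 0.13 and FABP7 (adjusted p = 3.5e-05, 2.5e-05 and 0.00042 in limma), the last with 2 of 3 t(1;14) arrays not above background and so without a firm size, 5.56% of members beside 6.82% of probes in either direction and 4.89% lower. This comparison uses the same 3 t(1;14) arrays as the one with control, so it is no separate evidence about them. The groups did not overlap for 24 members that were higher and 17 that were lower, beside 40.7% and 30.2% of probes. With slide as a block 32 members passed, beside 56.0% of all probes, and 27 of the 32 that passed without the block did so in all 6 runs that left out an array.

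Several members passed here and not against control, and the difference between the comparisons was not tested. HADHA rose by 0.61 ± 0.097 and HADH by 0.57 ± 0.10 (adjusted p = 0.0019 and 0.0033 in limma), but HADH passed in 1 of the 6 runs. FABP3 rose by 0.83 ± 0.13 (adjusted p = 0.0017 in limma). FABP5, at 0.67 ± 0.16, stood just past the threshold and did not pass with the probe used, but 3 of its 4 probes rose. LPL did not pass with the probe used either, but 3 of its 6 probes rose, 2 of them differential. The LPL probes had values from 0.63 to 2.43. PNPLA2 fell by 0.51 ± 0.11 (adjusted p = 0.0073 in limma) and lost the call in each of the 6 runs, with an adjusted p of up to 0.03 in limma. ACOX3, 1 of the 9 oxidation enzymes counted as higher in this comparison, was at least 1.24-fold higher. It entered the test only through the t(1;14) arrays and passed in 2 of the 6 runs. PLIN3 was at 0.09 ± 0.16, with an interval from -0.30 to 0.47.

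Lipid genes that the name rule does not take were described from 6 lists, with 78 genes on the array. Of 75 tested against control 23 rose and 10 fell, with a median of 0.33, beside 15.6% of probes in each direction and a median of 0.14. With slide as a block 27 passed, 20 higher and 7 lower, beside 24.2% of all probes. The count of 33 was 21 without t(1;14) replicate 1, beside 6394 of 39733 probes, and 19 without t(1;14) replicate 3, beside 5746 of 39761. Of 74 tested between oligospermic and control arrays 0 passed in limma, with 6 at an unadjusted p under 0.05 beside 9.84% of all probes, and of 75 tested against the oligospermic arrays 35 rose and 16 fell, beside 27.1% and 22.0% of 40567 probes.

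The counts by list against control stand beside 15.6% of all probes in each direction. Of 16 further genes of fatty acid oxidation and electron transfer 8 rose and 2 fell, with a median of 0.82. Of 13 genes for transport and uptake 4 rose and 1 fell, with a median of 0.37. All 3 tested genes of synthesis and elongation and 2 of 4 for ketone bodies and acetyl-CoA rose, with medians of 1.49 and 1.23. Of 22 genes of glycerolipid synthesis and turnover 3 rose and 5 fell (median -0.35), and of 17 regulators 3 rose and 2 fell (median 0.18).

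Differential genes of these lists numbered 4 of 75 against control, beside 5.61% of all probes. ME1, the malic enzyme that makes NADPH, read 5.94, 6.29 and 5.83 in control, 6.31, 6.40 and 6.30 in oligospermic and 9.06, 8.65 and 9.23 in t(1;14) arrays. ACSS2, the cytosolic acetyl-CoA synthetase, read 7.53, 7.72 and 7.62 in control, 8.03, 7.49 and 7.65 in oligospermic and 10.36, 10.58 and 10.38 in t(1;14) arrays. In each the t(1;14) arrays were more than 2 units above every other array, with rises of 2.96 ± 0.20 and 2.82 ± 0.12 (adjusted p = 0.00016 and 0.00012 in limma). LIPA, the lysosomal acid lipase, rose by 2.17 ± 0.14 (adjusted p = 0.00016 in limma).

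LPIN1, the phosphatidic acid phosphatase between the AGPAT and DGAT steps, read 9.15, 9.85 and 9.28 in control, 9.21, 9.15 and 9.55 in oligospermic and 6.95, 6.43 and 6.23 in t(1;14) arrays. It fell by 2.89 ± 0.26 (adjusted p = 0.00038 in limma), with no overlap. Against the oligospermic arrays these 4 genes were differential too, and so was APOE at 2.13 ± 0.24 (adjusted p = 0.00045 in limma). The droplet protein CIDEC was at least 3.97-fold higher, with 0 of 3 oligospermic arrays above background, and the acyltransferase MBOAT1 at least 1.54-fold lower, with 2 of 3 oligospermic and 0 of 3 t(1;14) arrays above background. Both entered the test only through the group where they were high.

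**Figure D4:**
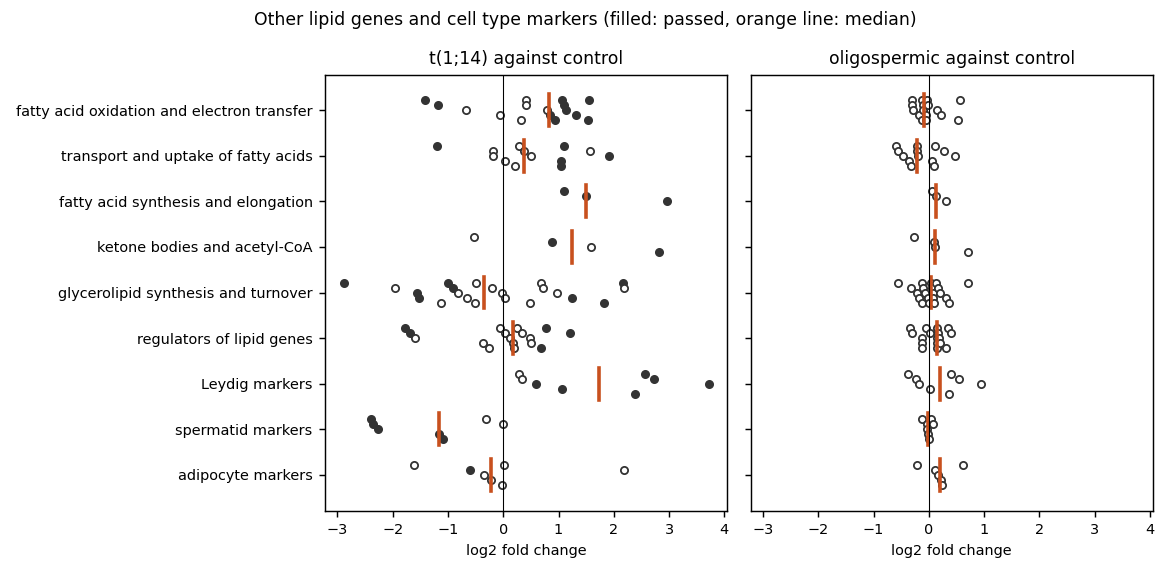
Log2 fold change of the lipid genes outside the name rule, by list, and of 3 cell type marker lists, for t(1;14) against control (left) and oligospermic against control (right). Each circle is a gene, filled where it passed, and the orange line is the median of the list. On the left the oxidation list lies mostly right of 0, Leydig markers right and spermatid markers left, and on the right no circle is filled.

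Leydig cell and spermatid markers moved with the t(1;14) group. The counts against control stand beside 15.6% of all probes that rose and 15.6% that fell. Of 8 Leydig cell markers 6 rose against control, 4 of them differential, and their mean log2 level was 9.84 to 10.05 in control, 9.93 to 10.26 in oligospermic and 11.59 to 11.67 in t(1;14) arrays. Of 7 spermatid markers 5 fell, 3 of them differential, with mean levels of 14.31 to 14.48, 14.30 to 14.40 and 12.99 to 13.02 in that order. PRM1 was saturated on all 9 arrays, PRM2 on 7, TNP2 on 4 and the Leydig cell marker INSL3 on 3, so that the mean levels and the values of these markers are limited by the scanner's range. Macrophage markers rose for 1 of 6 and endothelial markers for 2 of 6. Of 7 Sertoli cell markers 1 fell, of 4 spermatogonium markers tested 1 rose, of 3 spermatocyte markers 1 fell, and of 4 peritubular muscle markers 1 rose and 1 fell. Against the oligospermic arrays, where 27.1% of all probes rose and 22.0% fell, 5 of 6 macrophage markers rose, with a median of 1.07. There 3 of 6 endothelial and 5 of 8 Leydig cell markers rose, and 5 of 7 spermatid markers fell. Of the spermatogonium markers 2 of 4 rose, and of the spermatocyte markers 1 of 3. Of 7 Sertoli cell markers 1 rose and 1 fell, and of 4 peritubular muscle markers 1 rose and 2 fell. Between oligospermic and control arrays 0 of 51 markers tested passed in limma, with 8 at an unadjusted p under 0.05, beside 9.84% of all probes. The part of these cell types in the lipid gene differences was not tested.

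Of 9 adipocyte markers on the array 7 were tested, 1 fell (AQP7, by 0.61) and 0 rose, and the mean log2 level of the 9 was 6.32 to 6.52 in control, 6.19 to 6.59 in oligospermic and 6.44 to 6.55 in t(1;14) arrays. RETN and LGALS12 were not well above background on any of the 9 arrays. ADIPOQ was above background on all 3 control arrays and 1 t(1;14) array and did not pass (adjusted p = 0.011 in limma). CIDEC, which is also on this list, had means of 3.50 in control and 5.69 in t(1;14) arrays, with 1 and 3 arrays above background, and did not pass (adjusted p = 0.013 in limma). In t(1;14) against oligospermic arrays 3 of 7 adipocyte markers fell, among them ADIPOQ, which was above background on 1 t(1;14) array, and CIDEC was higher by the bound given above.

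All 58 members matched a RefSeq gene of the Sscrofa11.1 annotation, from which only names and chromosomes were taken. On chromosome 1, 5 members were tested, of which CRAT, FABP7 and PLIN2 fell and 0 rose. On chromosome 14, 6 were tested, of which ACADS, ACADSB and SCD rose and ACACB and ACSL5 fell. On the other chromosomes, with AGPAT2 of unknown place counted there, 15 of 43 passed (34.9%). Over the genes with a RefSeq symbol, 39.7% passed on chromosome 1, 37.0% on chromosome 14 and 33.8% elsewhere. Member counts per chromosome are small and were not tested.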

How the data were processed

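Testis RNA was labelled with cyanine 3 and hybridized to 9 porcine 60-base oligonucleotide arrays. The deposited scanner files hold spot intensity from Feature Extraction 11.5.1.1, background-subtracted by that software and not normalized between arrays. The deposited value table holds log2 values of 38759 probes that the authors normalized by quantiles, and the submitters' processing notes name limma. Here log2 of the processed intensity was quantile normalized over 9 arrays, control spots were left out, and a probe was tested where it was well above background on at least 2 of the 3 arrays of a group compared.

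Each comparison was fitted on its 6 arrays with limma 3.58.1 in R 4.3.3, with Benjamini-Hochberg adjustment over all probes tested, and the fit was tested on simulated data. Errors are standard errors of the fit and intervals are 95% intervals. The number of arrays limits the precision. Each of 3 slides held 1 array of every group. Deviations of arrays on the same slide correlated at 0.109 to 0.339 for t(1;14) and control and at 0.292 to 0.489 for t(1;14) and oligospermic arrays. For oligospermic and control arrays the replicate numbers of the labels are the slides, with correlations of 0.478, 0.136 and 0.101. That check therefore cannot tell a pairing of samples from a shared slide. With slide as a block 0 of 39713 probes passed between these groups.

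The members, the lists and the tests were chosen with earlier results of these data known. By the naming rule, full values went to differential members, to the 10 members with the largest rises and the 10 with the largest falls against control, and to members fixed by role. The other members are named with their values, apart from 1 member that enters the counts and is not reported here. Other lipid genes were named where differential. AQP7, ADIPOQ, RETN and LGALS12 were named after their values were seen. Alternatives covered the normalization, background correction, filter, probe choice, thresholds, slide, replicate number and each array left out.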

Additional observations from a re-analysis of the deposited data

How the results depend on the processing

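Against control, 23 members passed in t(1;14) arrays. With the threshold on the adjusted p relaxed to 0.05 there were 35, and the count ranged from 13 to 29 when single arrays were left out. In those runs between 5746 and 13392 of all probes passed. The replicate numbers of the labels did not pair t(1;14) and control arrays (correlations of -0.285, -0.194 and 0.139). With them as a replicate block 12 members passed, beside 5288 of 40643 probes. For the other lipid genes the count was 33, or 20 with the replicate block, and 19 to 38 when single arrays were left out. The 3 differential members became 5 with scaling to the 75th percentile, 6 with any probe of the gene, 19 at a log2 fold change of at least 1 and 1 with normexp background correction, and 3 to 4 when single arrays were left out.

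Against the oligospermic arrays the 3 differential members became 5 with any probe, 22 at a log2 fold change of at least 1 and 1 with normexp, and 3 to 4 with single arrays left out. The 32 members that passed ranged from 27 to 31, and the 51 other lipid genes from 39 to 48, with 30 at a log2 fold change of at least 1. Between oligospermic and control arrays the count was 0 under each alternative, the replicate block included. The cause of these shifts was not tested, apart from the thresholds, which set the count. No member that passed changed sign under the alternatives run. The 12 higher and 11 lower members against control became 7 and 10 with slide as a block, 4 and 8 with the replicate block, 5 and 9, 6 and 10, and 5 and 8 without t(1;14) replicates 1, 2 and 3, and 9 and 10 without control replicate 3 or at a log2 fold change of at least 1, so that which direction held more members depends on these settings. For single genes, over all comparisons together, 92 values lost the call, 45 gained it and 2539 kept their side of the threshold. A further 38 also kept it, passing under neither setting, but moved by more than 1 standard error. These counts include oligospermic against control, where no member passed under any alternative. They therefore do not measure how stable the t(1;14) calls were. Signal over background limits ACOX3, FABP1 and FABP7, which were not well above background on every array of each group.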
